A study of Homo sapiens with 9 samples.

Results

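The genes described here are the ligand netrin 4 (NTN4) and 9 other ligands and receptors of axon guidance, UNC5B, ROBO1, ROBO4, SLIT2, SEMA3A, SEMA3F, PLXNA1, PLXNA2 and PLXND1. They were taken by gene symbol from a pair of deposited tables of read counts, and all 10 were found among the 18293 genes listed in both tables. Poly-A RNA came from HMEC-1, an immortalised line of human dermal microvascular endothelial cells, so each library samples descendants of a single established line. Cells had 16 h of AMI-1 at 100 µM, of AMI-5 at 100 µM, or of the solvent DMSO alone as the control. All 3 groups were kept at 5.5 mM glucose, both compounds were dissolved in DMSO, and each group had 3 libraries, 9 in all. AMI-1 is a naphthalene sulfonic acid urea and AMI-5 a tetrabromo xanthene dye, and the study's title speaks of pharmacological inhibition of methyltransferases. The list of 10 genes was chosen by symbol with earlier CPM values and fold changes of the same libraries known, and which of these values led to each name is not recorded. The tests below give each gene's place among all genes measured and are not independent support for the choice.

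Axon guidance cues are secreted or membrane-bound proteins that steer growing axons, and blood vessels use many of the same molecules when they sprout and branch. Netrins are laminin-related secreted proteins, and among them NTN4 is a vascular basement membrane protein that binds laminin chains and can act through the matrix as well as through receptors. UNC5B is a netrin receptor found on endothelium, SLIT2 is the ligand of ROBO1, and ROBO4 is the endothelial member of the Robo receptors. SEMA3A and SEMA3F are secreted class 3 semaphorins, which bind a neuropilin as holding receptor and signal through plexins such as PLXNA1, PLXNA2 and PLXND1.

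Total counts ran from 14454113 to 24693020 per library. Libraries with the same replicate number deviated together from their group means, with correlations across genes of 0.431 to 0.871 in the 9 pairs of one number and of -0.804 to 0.204 in the 18 pairs of different numbers. A fit that leaves the number out called 0 of 18284 genes in each of the 3 comparisons under edgeR's quasi-likelihood F test, while 188 genes with AMI-1, 494 with AMI-5 and 483 between the compounds had an unadjusted p under 0.05. DESeq2 without the number called 3, 20 and 36 genes. Fold changes, standard errors (SE) and calls below come from the same edgeR test with the replicate number as a term, where a gene is called if its Benjamini-Hochberg adjusted p over 18284 genes is under 0.05. The labels do not say that the libraries of a group are separate cultures, so p-values measure only the spread between these libraries. Of 11 endothelial markers, 10 were listed in the tables, CDH5, KDR, TEK and VWF among them, and PECAM1 was not. Their summed level ran from 923 to 1200 CPM (read counts scaled to library size) with AMI-1, from 710 to 983 CPM with AMI-5 and from 852 to 1250 CPM in the control. None of 4 leukocyte and 4 epithelial markers was listed, against 6 of 7 smooth muscle and pericyte markers, whose sum ran from 223 to 381 CPM with AMI-1, from 172 to 326 CPM with AMI-5 and from 205 to 437 CPM in the control. Of 4 fibroblast markers 3 were listed, COL1A1 included, with sums of 2880 to 3880 CPM with AMI-1, 2210 to 2930 CPM with AMI-5 and 2730 to 4170 CPM in the control. The part that other cell types had in the results was not tested.

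The promoters of 3 genes are shown, and no result below rests on them. NTN4 and SLIT2 are the 2 of the 10 genes called with AMI-1, and TIPARP is the gene whose pattern over the libraries was most like that of NTN4. Each is the stretch of 250 bases before the start of the gene, 5′ to 3′ on the gene's own strand, from RefSeq on GRCh38.p14. Capitals mark GCGTG read on either strand, the core sequence bound by the aryl hydrocarbon receptor, a ligand-activated transcription factor of which TIPARP and CYP1B1 are textbook targets.
NTN4, chr12:95791156-95791405, minus strand: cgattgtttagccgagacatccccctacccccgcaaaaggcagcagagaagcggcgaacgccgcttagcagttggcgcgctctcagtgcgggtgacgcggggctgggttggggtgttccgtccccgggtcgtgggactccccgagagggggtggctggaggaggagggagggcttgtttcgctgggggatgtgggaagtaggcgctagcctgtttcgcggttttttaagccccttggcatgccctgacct
SLIT2, chr4:20251655-20251904, plus strand: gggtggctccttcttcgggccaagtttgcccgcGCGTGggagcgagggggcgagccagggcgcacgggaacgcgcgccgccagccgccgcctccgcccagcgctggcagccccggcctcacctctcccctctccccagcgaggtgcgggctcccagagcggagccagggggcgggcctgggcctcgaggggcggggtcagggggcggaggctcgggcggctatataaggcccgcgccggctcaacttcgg
TIPARP, chr3:156674340-156674589, plus strand: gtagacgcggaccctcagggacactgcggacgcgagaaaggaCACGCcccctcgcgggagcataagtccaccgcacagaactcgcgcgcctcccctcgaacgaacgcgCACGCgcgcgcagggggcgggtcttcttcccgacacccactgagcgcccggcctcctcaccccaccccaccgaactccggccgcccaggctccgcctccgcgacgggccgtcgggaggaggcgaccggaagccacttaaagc
The NTN4 window held 0 matches, the SLIT2 window 1, and the TIPARP window 2. Of the 10 genes 8 had a window and 3 of these held a match (ROBO1, SLIT2 and PLXND1), while 32.2% of the 35116 windows of the same length held one. For each named gene only the first window given was used, whereas the 35116 windows were not cut to 1 per gene. The windows of SYNJ2 and PDPN, 2 other genes with a pattern like that of NTN4, held 0 matches. STC1 and CYP1B1, which also had a pattern like that of NTN4, had no window. A match is a description of the letters in the window.

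The 10 genes spanned a wide range of levels. Per kilobase of exon, NTN4 stood first in the control with a mean of 105.5 CPM per kb (102.4 to 111.1 over 3 libraries). SEMA3F followed with 35.63 CPM per kb, PLXND1 with 28.41 and PLXNA2 with 26.42, and the ranges of these 3 genes overlapped. PLXNA1 (12.36 CPM per kb), ROBO4 (10.16) and SLIT2 (9.184) formed the next overlapping group. SEMA3A had 6.044 CPM per kb, and the receptors ROBO1 (4.377) and UNC5B (4.209) came last, with ranges that overlapped each other but not that of SEMA3A. NTN4 and SEMA3F did not overlap, nor did PLXNA2 and PLXNA1, or SLIT2 and SEMA3A. Exon lengths were those of GENCODE 29 on GRCh38, another build than the counts, so these levels per length order the genes only roughly.

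**Figure D1:**
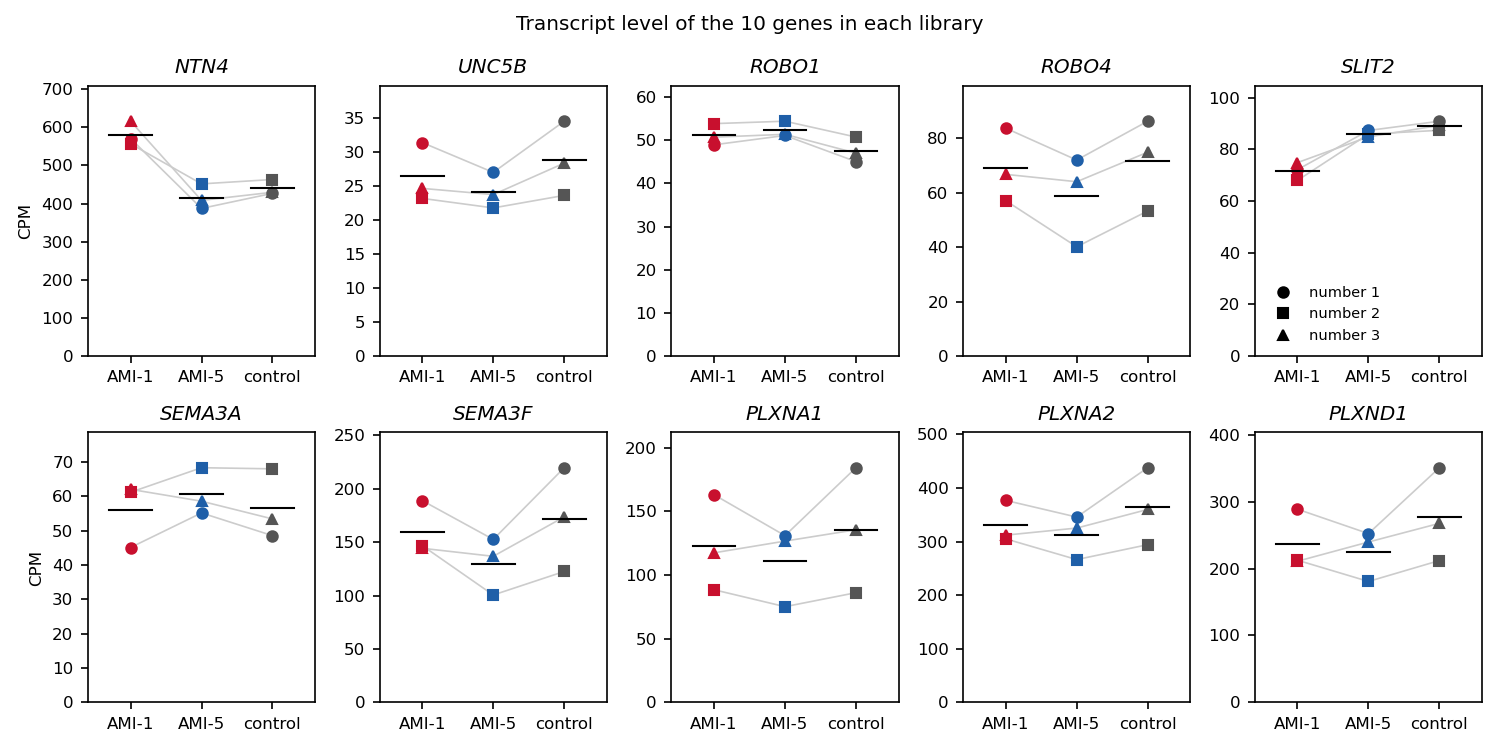
CPM of each of the 10 genes in each library (vertical axes start at 0), by group, with AMI-1 in red, AMI-5 in blue and control in grey. Symbols mark the replicate number, grey lines join libraries of one number and bars are group means. NTN4 stands apart at 556.7 to 616 CPM with AMI-1 and SLIT2 at 67.99 to 74.88 CPM, while the plexins, ROBO4 and UNC5B are spread mainly by replicate number.

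With AMI-1 the netrin gene NTN4 was higher and the Slit gene SLIT2 was lower than in control cells, and these were the 2 of the 10 genes called, beside 0.421% of all genes tested. NTN4 had 570.5, 556.7 and 616 CPM in AMI-1 libraries 1, 2 and 3, against 426.7, 463 and 429.5 CPM in control libraries. All 3 AMI-1 values lay above all 3 control values. The means were 581.1 ± 31.0 CPM with AMI-1 and 439.7 ± 20.2 CPM in the control (SD, n = 3 each), 1.32-fold higher, with a log2 fold change of 0.40 ± 0.06 SE (95% interval 0.28 to 0.53, adjusted p = 0.00249 in edgeR). Within the replicate numbers the log2 difference was 0.42, 0.27 and 0.52. Without AMI-1 replicate 1 the call of NTN4 ended (adjusted p = 0.0818), and likewise without control replicate 3 (adjusted p = 0.0584).

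SLIT2, the secreted ligand of Robo receptors, had 72.15, 67.99 and 74.88 CPM with AMI-1, against 90.91, 87.38 and 89.28 CPM in the control. The groups did not overlap, which held in one direction or the other for 4.00% of all genes. The log2 fold change was -0.31 ± 0.06 SE (95% interval -0.44 to -0.19, adjusted p = 0.0156 in edgeR), and the differences within numbers were -0.33, -0.36 and -0.25. In RNA of a whole culture, fewer cells of a kind and less RNA per cell cannot be told apart. The call of SLIT2 ended without AMI-1 replicate 1 (adjusted p = 0.227) and without control replicate 1 (0.197), 2 (0.0895) or 3 (0.157).

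The other 8 genes were not called with AMI-1. Among the ligands, SEMA3F averaged 159.9 ± 25.1 CPM with AMI-1 and 171.9 ± 48.6 CPM in the control (SD, n = 3 each), and SEMA3A averaged 56.08 ± 9.53 CPM with AMI-1 and 56.64 ± 10.1 CPM in the control. Of the receptors, ROBO1 had a log2 fold change of 0.10 and was above its control in 3 of 3 numbers, a pattern shared by 14.4% of all genes. The semaphorin receptor PLXND1 had -0.21 ± 0.07 SE (adjusted p = 0.315), and its difference within number 2 was 0.0035, that is, close to 0. ROBO4, UNC5B, PLXNA1 and PLXNA2 had log2 fold changes of -0.04, -0.13, -0.12 and -0.12. The median of the 10 genes was -0.10 and 8 of them were below 0, beside a median of -0.0019 over all genes.

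The class 3 semaphorin SEMA3F, the Robo receptor ROBO4, the netrin receptor UNC5B and the plexins PLXNA1, PLXNA2 and PLXND1 were called lower with AMI-5 than in control cells, 6 of 10 genes, beside 10.9% of all genes called in either direction and 7.45% called lower. No gene of the 10 was called higher. In each of the 6, the AMI-5 library was below the control library in 3 of 3 numbers, as in 28.8% of all genes, while the ranges of the groups overlapped.

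SEMA3F had 152.5, 100.5 and 136.7 CPM with AMI-5, against 219.6, 122.5 and 173.6 CPM in the control. Number 2 was lowest in both groups and number 1 highest. The log2 fold change was -0.39 ± 0.08 SE (0.76-fold, adjusted p = 0.00738 in edgeR), with differences of -0.53, -0.29 and -0.35 within numbers. Under the Wald test of DESeq2 with the number as a term neither SEMA3F (adjusted p = 0.0552) nor UNC5B (adjusted p = 0.0917) was called. Counts of SEMA3F may include reads of the antisense gene SEMA3F-AS1, whose exons overlap it and which had a mean count of 322.2 beside 2909 for SEMA3F.

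ROBO4 had 72.01, 40.12 and 64.04 CPM with AMI-5, against 86.29, 53.28 and 74.90 CPM in the control. The log2 fold change was -0.29 ± 0.07 SE (adjusted p = 0.0182 in edgeR), and the difference was largest in number 2, at -0.41. A pair of genes on the opposite strand overlap exons of ROBO4, AP003501.1 and AP003501.2, with mean counts of 104.9 and 80.0 beside 1268 for ROBO4. UNC5B, the lowest of the 10 per kilobase in the control, had 26.96, 21.74 and 23.70 CPM with AMI-5, against 34.48, 23.58 and 28.32 CPM in the control. Its log2 fold change was -0.25 ± 0.08 SE (adjusted p = 0.0441 in edgeR).

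The 3 plexins, which carry the semaphorin signal into the cell, were all lower with AMI-5. PLXND1 had 252.2, 180.7 and 239.6 CPM with AMI-5, against 350.6, 211.9 and 267.5 CPM in the control, with a log2 fold change of -0.29 ± 0.07 SE (adjusted p = 0.0194 in edgeR). PLXNA1 had 130.9, 75.14 and 126.6 CPM with AMI-5, against 184.2, 86.11 and 135.5 CPM in the control (-0.26 ± 0.08 SE, adjusted p = 0.0332 in edgeR). PLXNA2 had 345.8, 266.5 and 325.3 CPM with AMI-5, against 437.9, 294.3 and 360.0 CPM in the control (-0.21 ± 0.06 SE, adjusted p = 0.0334 in edgeR). In all 3 plexins the difference was largest in number 1, at -0.48 for PLXND1, -0.49 for PLXNA1 and -0.34 for PLXNA2. All 6 calls ended when 1 library was left out: without AMI-5 replicate 1, AMI-5 replicate 2, control replicate 1 or control replicate 3 none of the 10 genes was called. PLXNA1, PLXNA2 and UNC5B also lost their calls without AMI-1 replicate 1, and UNC5B without AMI-5 replicate 3. Leaving out control replicate 1 moved PLXNA1 to -0.17 and PLXNA2 to -0.14, and leaving out AMI-5 replicate 1 moved PLXNA1 to -0.16.

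The other 4 genes were not called with AMI-5. NTN4 had 387.1, 451.5 and 408.2 CPM with AMI-5, against 426.7, 463 and 429.5 CPM in the control, a log2 fold change of -0.08 with a 95% interval of -0.21 to 0.04. SLIT2 had -0.05, and its AMI-5 values, 84.86 to 87.32 CPM, lay just below the control values, 87.38 to 90.91 CPM. ROBO1 had 0.14 ± 0.06 SE (adjusted p = 0.16 in edgeR), with 51.10 to 54.41 CPM with AMI-5 and 45.05 to 50.74 CPM in the control. ROBO1 and SLIT2 were the 2 genes of the list whose groups did not overlap, a property of 7.35% of all genes. SEMA3A had 0.11 (adjusted p = 0.375).

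Transcript base composition moved with the AMI-5 result. The 6 genes called lower had a GC content of 54.2% to 63.5% and the 4 not called one of 36.7% to 47.9%, beside a median of 48.1% over all genes. Across the 10 genes the log2 fold change with AMI-5 had a Pearson r of -0.91 and a Spearman rho of -0.87 with GC content, a description over genes that come from the same 9 libraries. All genes above 55% GC had a median log2 fold change of -0.15 with AMI-5, and 19.6% of these 4827 genes were called lower. The 6562 genes at or under 45% GC had a median of 0.0874, and 0.686% of them were called lower. After a correction of each library for GC content, SEMA3F (-0.20, adjusted p = 0.00421), PLXNA2 (-0.14, 0.0229) and ROBO4 (-0.15, 0.035) were called lower in edgeR, 3 of 10 genes, beside 8.10% of all genes called lower and 13.2% called in either direction. UNC5B (-0.11, adjusted p = 0.295), PLXNA1 (-0.10, 0.157) and PLXND1 (-0.09, 0.107) were not called after it. With AMI-1 the corrected values were 0.41 for NTN4 (adjusted p = 3.03e-06) and -0.33 for SLIT2 (2.71e-05), and PLXND1 was called lower as well (-0.16, adjusted p = 0.014), beside 3.12% of all genes called. The part of base composition in the measured differences was not tested beyond this correction.

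**Figure D2:**
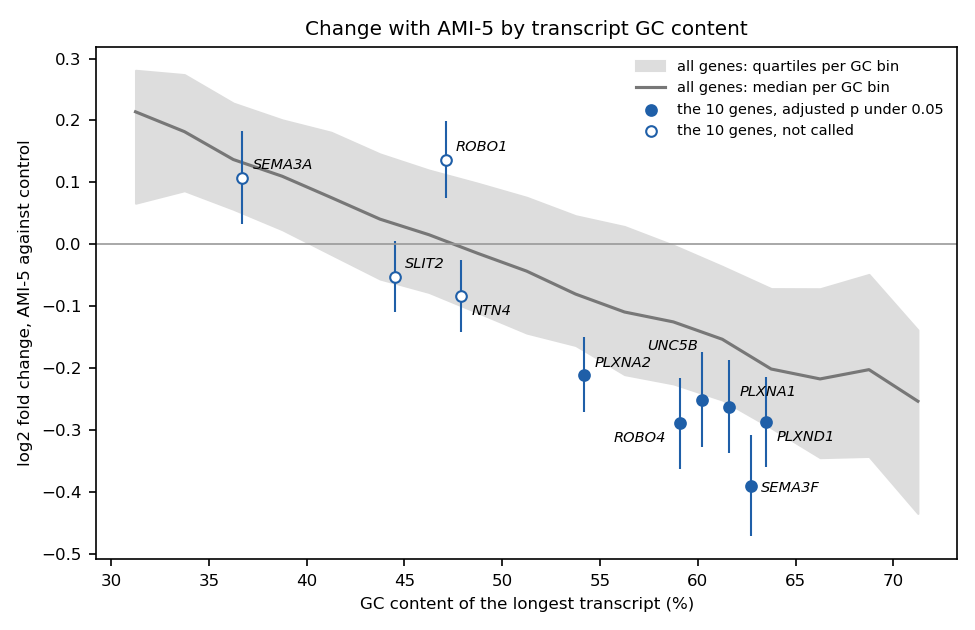
Log2 fold change of AMI-5 against control (vertical axis) against the GC content of the longest transcript in percent (horizontal axis) for the 10 genes, with SE bars. The grey line is the median of all genes per GC bin and the band runs between their quartiles. The 6 called genes, filled, lie between 54.2% and 63.5% GC and between -0.21 and -0.39.

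The replicate number accounted for more of the spread than the treatment in most of the list. In NTN4 and SLIT2 the treatment took 89.8% and 93.3% of the sum of squares of log2 CPM over the 9 libraries, and the number 3.54% and 3.04%. In PLXNA1 the treatment took 6.90% and the number 88.2%, and in ROBO4 16.5% and 78.1%. PLXNA2, PLXND1, UNC5B, SEMA3A and SEMA3F lay between, with 60.5% to 75.4% for the number, and ROBO1 had 50.7% for the treatment and 46.3% for the number. UNC5B, ROBO4, SEMA3F and the 3 plexins were highest in number 1 in all 3 groups, and SEMA3A and ROBO1 were lowest there in all 3 groups.

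Between the compounds, NTN4 and SLIT2 differed in opposite directions. NTN4 averaged 415.6 ± 32.8 CPM with AMI-5 and 581.1 ± 31.0 CPM with AMI-1 (SD, n = 3 each), a log2 difference of -0.49 ± 0.06 SE (95% interval -0.61 to -0.37, adjusted p = 7.7e-05 in edgeR). The groups did not overlap, as in 7.49% of all genes, the differences within numbers were -0.56, -0.30 and -0.59, and the call was kept in 9 of 9 fits that left out a library. SLIT2 averaged 86.04 ± 1.23 CPM with AMI-5 and 71.67 ± 3.47 CPM with AMI-1, a log2 difference of 0.26 ± 0.06 SE (95% interval 0.14 to 0.38, adjusted p = 0.0132 in edgeR). That call ended without AMI-1 replicate 1 (adjusted p = 0.137), AMI-5 replicate 1 (0.0974) or AMI-5 replicate 2 (0.127).

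SEMA3F was the third gene called between the compounds, 3 of 10 beside 5.01% of all genes. Leaving out AMI-1 replicate 1, AMI-5 replicate 1 or AMI-5 replicate 2 gave 1 call, and AMI-1 replicate 2 gave 2. With AMI-5 replicate 3 left out there were 5 calls, and with AMI-1 replicate 3 left out 7. The 5.01% belongs to the fit of all 9 libraries. The counts without a library stand without the share of all genes in the same fits and are no result about the 10 genes. SEMA3F averaged 129.9 ± 26.6 CPM with AMI-5 and 159.9 ± 25.1 CPM with AMI-1 (SD, n = 3 each), a log2 difference of -0.31 ± 0.08 SE (95% interval -0.48 to -0.14, adjusted p = 0.034 in edgeR). The SEMA3F call ended when replicate 1 or 2 of either compound was left out, with an adjusted p of up to 0.264, and under the Wald test of DESeq2 with the number as a term (adjusted p = 0.201). The SEMA3F value was -0.17 without AMI-1 replicate 2 (adjusted p = 0.194) and -0.17 after the GC correction (adjusted p = 0.0179). ROBO4 had -0.25 ± 0.07 SE (adjusted p = 0.0564), and -0.15 (adjusted p = 0.0446) after the GC correction, when 11.1% of all genes were called. For the remaining genes a difference between the compounds was not shown, and the 95% intervals of the log2 difference were -0.28 to 0.04 for UNC5B, -0.10 to 0.16 for ROBO1, -0.05 to 0.27 for SEMA3A, -0.30 to 0.02 for PLXNA1, -0.21 to 0.04 for PLXNA2 and -0.23 to 0.07 for PLXND1. The comparisons with the control share the same 3 control libraries, and the comparison between compounds reuses the treated libraries of both.

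**Figure D3:**
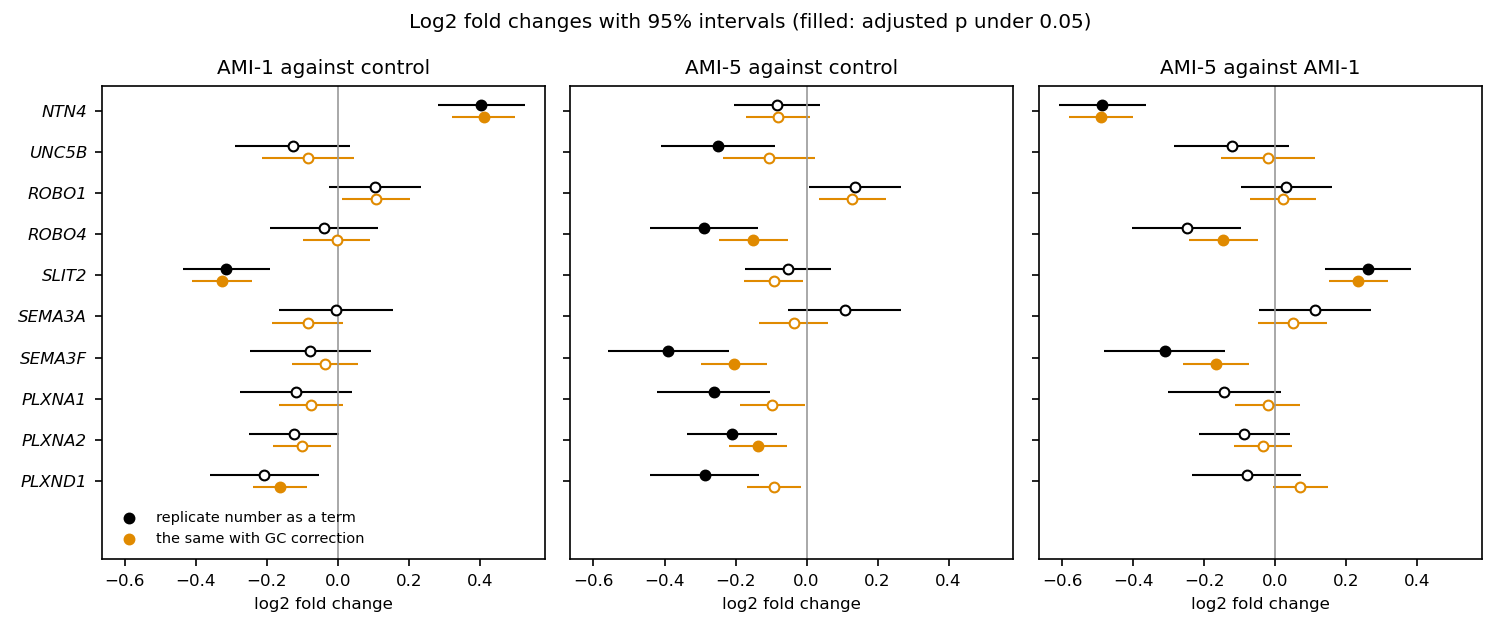
Log2 fold changes of the 10 genes (horizontal axes) in the 3 comparisons, with 95% intervals, from the fit with replicate number as a term (black) and from the same fit after GC correction (orange). Filled points have an adjusted p under 0.05. NTN4 at 0.40 and SLIT2 at -0.31 stand out with AMI-1, and 6 genes lie at -0.21 to -0.39 with AMI-5 before the correction.

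The genes whose pattern was most like that of a listed gene were found by Pearson's r of log2 CPM over the 9 libraries after the mean of each replicate number was taken out, among 12761 genes with a mean of at least 5 CPM. The 5 most like NTN4 were TIPARP (r = 0.995), STC1 (0.993), SYNJ2 (0.992), CYP1B1 (0.992) and PDPN (0.989). TIPARP, an ADP-ribosyltransferase gene, averaged 180.2 CPM with AMI-1, 90.62 CPM with AMI-5 and 100.3 CPM in the control. CYP1B1, a cytochrome P450 gene, averaged 44.02 CPM with AMI-1, 4.639 CPM with AMI-5 and 5.738 CPM in the control. The log2 fold change with AMI-1 against control was 0.86 for TIPARP and 2.90 for CYP1B1. It was 0.46 for STC1, the stanniocalcin gene, 0.34 for PDPN, the podoplanin gene, and 0.27 for SYNJ2, a phosphoinositide phosphatase gene. Because these genes were picked for their likeness to NTN4 over the same libraries, a higher level with AMI-1 was fixed by the choice, and the values are given with no test. In NTN4 and in each of these 5 genes the AMI-1 library of number 2 was the lowest of the 3 AMI-1 libraries relative to its number. Likeness of this kind is a description of 9 libraries that share treatments and base composition.

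**Figure D4:**
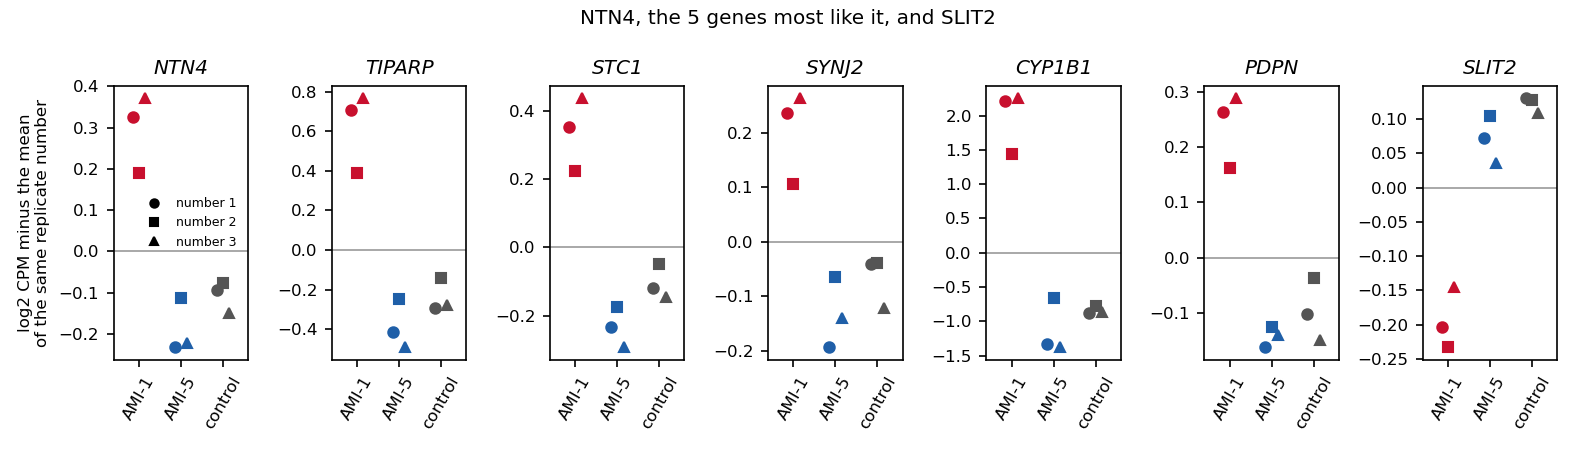
Log2 CPM minus the mean of the same replicate number (vertical axes, each with its own scale) in each library for NTN4, the 5 genes most like it and SLIT2, by group. NTN4 and the 5 genes are high in the 3 AMI-1 libraries, with number 2 the lowest of these, and SLIT2 is low in them.

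For SLIT2 the most alike genes were EFEMP1 and APBB2 (r = 0.991 each). For the genes called lower with AMI-5 they were CARM1 and SPPL2B for SEMA3F, PPP2R4 and TPD52L2 for ROBO4, IRF2BP2 and CPNE1 for UNC5B, FLNA and UHRF1 for PLXNA1, the Eph receptor gene EPHA2 and STARD8 for PLXNA2, and NDUFB10 and ACTG1 for PLXND1, with r of 0.981 to 0.997. Within the list, PLXNA2 and PLXND1 were the most alike pair (r = 0.981), PLXNA1 followed with 0.954 to PLXND1 and 0.951 to PLXNA2, and NTN4 and SLIT2 ran opposite (r = -0.857).

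The further genes of the pathways were taken from 7 lists. Of the netrins, their receptors and co-ligands 8 of 19 genes were measured, and DCC, NTN3, NTN5 and the other UNC5 receptors were not among the genes listed in both tables. With AMI-1 1 of the 8 was higher (NTN4) and 1 lower, FLRT2, a membrane protein that binds UNC5 receptors. Over all genes 0.421% were called with AMI-1 in either direction, and 7.45% were called lower with AMI-5. FLRT2 averaged 62.0 CPM with AMI-1 and 75.8 CPM in the control (log2 fold change -0.29 ± 0.06 SE, adjusted p = 0.0395 in edgeR), and was 0.31 higher with AMI-5 than with AMI-1 (adjusted p = 0.00514). With AMI-5 1 of the 8 was lower, UNC5B, and the list's median was -0.09. Of the Slits, Robos and their SRGAP partners 8 of 10 were measured, with SLIT2 lower with AMI-1 and ROBO4 lower with AMI-5 as the only calls against control.

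Of 20 semaphorins 15 were measured. With AMI-1 0 were called, and with AMI-5 2 were lower, SEMA3F and the membrane-anchored SEMA7A, which averaged 12.0 CPM with AMI-5 and 15.3 CPM in the control (-0.35, adjusted p = 0.0445 in edgeR, and 0.133 after GC correction). Between the compounds SEMA3C was higher with AMI-5 (0.21, adjusted p = 0.0388) and SEMA4B was lower (-0.29, adjusted p = 0.0496, and 0.0531 with DESeq2 size factors). All 11 plexins and neuropilins were measured, and 5 were lower with AMI-5, the 3 plexins of the list, PLXNB2 and NRP2, with a median of -0.19 over the 11 and 10 of them below 0. Over all genes tested 7.45% were called lower with AMI-5, and 19.6% of those above 55% GC. NRP2, the neuropilin that binds SEMA3F, averaged 49.9 CPM with AMI-1, 51.8 CPM with AMI-5 and 61.6 CPM in the control (-0.30, adjusted p = 0.0499 with AMI-1 and -0.25, adjusted p = 0.0219 with AMI-5, in edgeR), and the call with AMI-1 ended with DESeq2 size factors (adjusted p = 0.0613). After the GC correction 3 of the 11 were lower with AMI-5, beside 8.10% of all genes. These were PLXNA2, NRP2 (-0.22, adjusted p = 0.00489 in edgeR) and NRP1 (-0.18, adjusted p = 0.00775). NRP1 was not called before the correction (adjusted p = 0.17). NRP2 was called with AMI-1 as well after it (-0.29, adjusted p = 0.00115). With AMI-5 the median of the 11 was -0.07 after the correction, and PLXNB2 was not called (adjusted p = 0.222).

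Of 22 ephrins and Eph receptors 13 were measured. With AMI-5 the ligand gene EFNB2, a marker of arterial endothelium, was higher, with 79.9 CPM against 69.4 CPM in the control (0.20, adjusted p = 0.0477 in edgeR, and 0.0528 with DESeq2 size factors), and it was also higher than with AMI-1 (64.1 CPM; 0.32, adjusted p = 0.00718). The receptors EPHA2 (-0.32, adjusted p = 0.0118), EPHB4 (-0.28, adjusted p = 0.0188) and EPHA1 (-0.25, adjusted p = 0.0264) were lower with AMI-5, 3 of 13 beside 7.45% of all genes. After the GC correction EPHA2 had -0.17 (adjusted p = 0.00961) and EPHB4 -0.12 (adjusted p = 0.0449) with AMI-5, and EPHA1 was not called (-0.12, adjusted p = 0.188). With AMI-1 0 of the 13 were called before the correction and 4 were lower after it, EPHA1 (-0.26, adjusted p = 0.0092), EPHA2 (-0.17, 0.0228), EPHB4 (-0.15, 0.0317) and EPHB2 (-0.16, 0.0358). EPHB2 was added to the text with its values known. After the correction 3.12% of all genes were called with AMI-1 in either direction. Of 32 intracellular partners of guidance receptors 31 were measured, and 7 were lower with AMI-5 and 0 higher, beside 7.45% of all genes called lower. With AMI-1 0 of the 31 were called, beside 0.421% of all genes, and 2 were lower after the GC correction. Among the 7 with AMI-5 were the exchange factor TRIO, with 280 CPM against 330 CPM in the control (-0.23, adjusted p = 0.00963), the oxidase MICAL3 (-0.22, adjusted p = 0.021), the kinase ABL1 (-0.23, adjusted p = 0.0226) and the adaptor GIPC1 (-0.31, adjusted p = 0.0254). The calls of MICAL3, ABL1 and GIPC1 ended after the GC correction (adjusted p = 0.0781, 0.108 and 0.103). After it 7 of the 31 were again lower with AMI-5, beside 8.10% of all genes, but not all were the same genes. TRIO was still called (adjusted p = 0.0015 in edgeR). FARP1 (adjusted p = 0.00572), PTK2 (0.0105), ABL2 (0.0239) and FARP2 (0.0487) were called with AMI-5 only after the correction.

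All 7 laminin partners of netrin 4 were measured, and 4 were lower with AMI-5, beside 7.45% of all genes. LAMA5, the laminin alpha 5 chain of the vascular basement membrane, averaged 237 CPM with AMI-5 and 367 CPM in the control (-0.60 ± 0.08 SE, adjusted p = 0.000352 in edgeR), and it was lower with AMI-5 than with AMI-1 (341 CPM; -0.53, adjusted p = 0.000725). Both LAMA5 calls were kept in 9 of 9 fits that left out a library with the replicate number as a term, and after the GC correction the values were -0.36 against control and -0.35 between the compounds. LAMB2 (-0.24, adjusted p = 0.0221), LAMC1 (-0.18, adjusted p = 0.0237) and LAMB1 (-0.17, adjusted p = 0.0286) were lower with AMI-5 against control, and LAMB2 was not called after the GC correction (adjusted p = 0.126). With AMI-1 1 of the 7 was higher, beside 0.421% of all genes called in either direction. This was the nidogen gene NID2, named after its values were seen, with 61.0 CPM against 49.4 CPM in the control (0.31 ± 0.06 SE, adjusted p = 0.0331). Between the compounds 3 of the 7 were lower with AMI-5, beside 5.01% of all genes called. These were LAMA5, LAMB2 (-0.31, adjusted p = 0.00704 in edgeR) and NID2 (-0.24, adjusted p = 0.0328). After the GC correction 5 of the 7 were, LAMB2 among them (-0.20, adjusted p = 0.000914), beside 11.1% of all genes called. Of the 29 calls of list genes outside the 10, over the 3 comparisons, 2 were kept in all 9 fits without a library, those of LAMA5 with AMI-5 and between the compounds. Every other call in these lists ended without AMI-1 replicate 1 or AMI-5 replicate 1, among other libraries. Without the replicate number as a term, 0 genes of the 7 lists were called in edgeR.

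**Figure D5:**
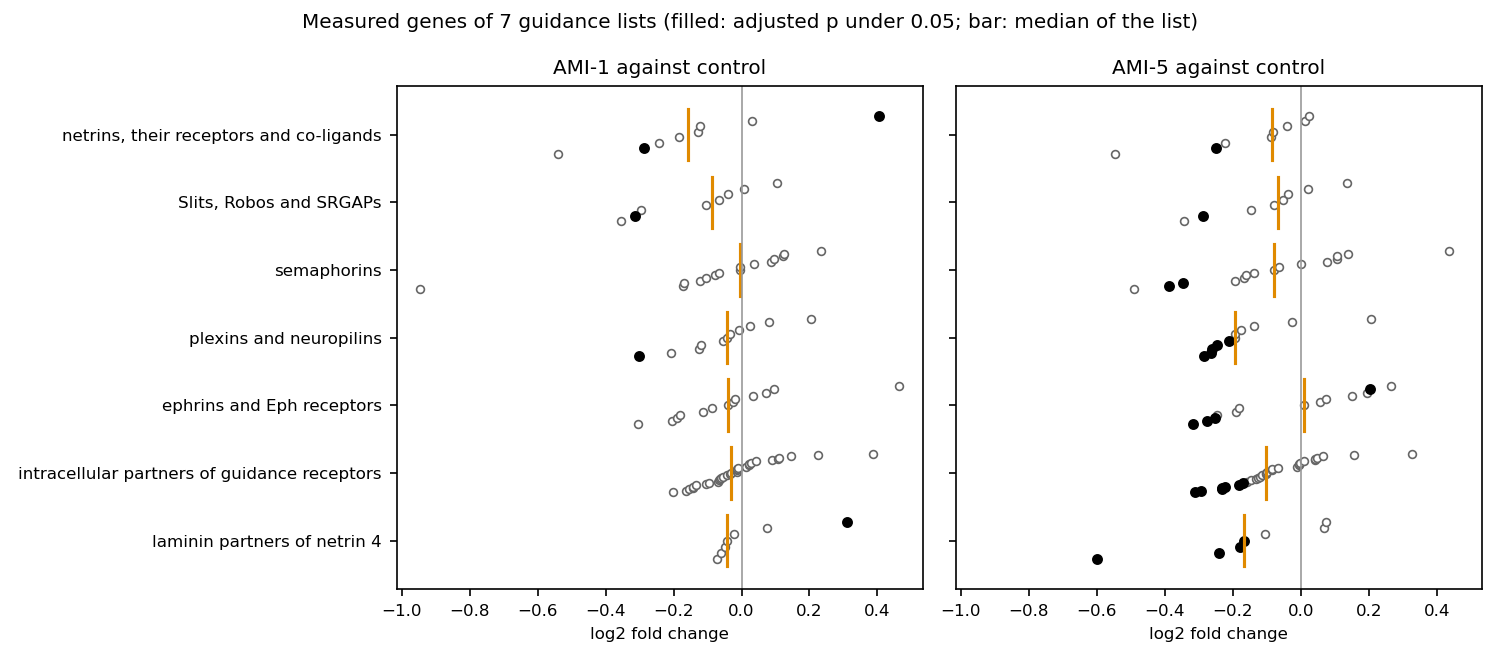
Log2 fold changes (horizontal axes) of the measured genes of the 7 lists with AMI-1 and with AMI-5, each against control. Filled points have an adjusted p under 0.05 and bars are list medians, which lie at -0.19 for plexins and neuropilins and at -0.17 for laminin partners with AMI-5.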

How the data were processed

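The authors deposited raw read counts per gene in a pair of tables, 1 for each compound, each with the same control libraries, whose values were identical (0 differed). BWA, bedtools and the build hg19 are named per the submitters' processing notes. Tool versions, gene annotation and strand setting were not given in the sources used here, so reads of overlapping antisense genes cannot be told apart. The tables listed 18385 and 18598 genes, with a lowest mean count of 10 in each, and 18293 genes were in both. The members and the lists were chosen with earlier results of these data known.

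Counts were tested with edgeR 4.0.16 in R 4.3.3 (limma 3.58.1), with TMM normalisation, filterByExpr by group (18284 genes left) and the quasi-likelihood F test in 1 fit of 9 libraries, with Benjamini-Hochberg adjustment. The test was also run on counts simulated from the fit with the replicate number as a term. These had no GC-related shift with treatment, so the run could not check that fit's own assumptions. CPM values are TMM-normalised and log2 CPM had a prior count of 2. The design was written without the replicate number. The numbers come from the labels, which do not say what they share. In the deposited headers, count columns of one number begin with the same prefix in all 3 groups, and what the prefix stands for is not stated. Same-numbered libraries correlated at 0.431 or more in all 9 pairs and every library correlated best with its own number, so the fit with the number as a block is the one described. It lowered the biological coefficient of variation to 5.64%, against 23.7% without the block. The GC correction used a lowess curve per library (span 0.3) on the GC content of the longest GENCODE 29 transcript, known for 95.7% of genes. Alternatives were DESeq2 size factors, no filter, the Wald test of DESeq2 1.42.0, fits of 2 groups, and fits without each library in turn. Intervals are at 95%.

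Named genes are the 10 members, up to 4 further genes of each list with the lowest adjusted p among those called in any comparison, the 5 genes most like NTN4, and the 2 most like each other called member. NID2, EPHB2, NRP1, FARP1, FARP2, ABL2 and PTK2 lie outside this rule and were added after their values were seen.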

Additional observations from a re-analysis of the deposited data

How the results depend on the processing

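The design as written, without the replicate block, called 0 of the 10 genes in each comparison with edgeR, and 2, 0 and 2 had an unadjusted p under 0.05 (with AMI-1, with AMI-5, and between the compounds). NTN4 had an adjusted p of 0.71 between the compounds, and every other adjusted p of the 10 genes was 1. With the replicate block 2, 6 and 3 genes were called in the same order of comparisons, and the same numbers resulted with DESeq2 size factors beside the block or with only the groups compared. Block and GC correction together gave 3, 3 and 4, the Wald test of DESeq2 gave 2, 4 and 2 with the block, and 0, 0 and 1 without it. Of all genes, edgeR with the block called 0.421%, 10.9% and 5.01% in the same order. With block and GC correction it called 3.12%, 13.2% and 11.1%. The counts under DESeq2 and with only the groups compared are given here without that share. Among further genes of the lists, DESeq2 size factors beside the block ended the calls of NRP2 with AMI-1, EFNB2 with AMI-5, and SEMA4B and GIPC1 between the compounds (adjusted p = 0.0528 to 0.0613). Fits of only the groups compared ended those of FLRT2 (0.0983), NRP2 (0.0879) and NID2 (0.062) with AMI-1, and of SEMA3C (0.092), SEMA4B (0.055) and NID2 (0.107) between the compounds. The Wald test with the block ended those of SEMA7A (0.0814) and EFNB2 (0.0723) with AMI-5 and of GIPC1 with AMI-5 (0.151) and between the compounds (0.229). Leaving out 1 library, with or without the block, gave 0 to 3, 0 to 6 and 0 to 7, again without the share of all genes called in those fits. Alternatives were counted for the 10 genes, the further list genes called with the block and the 5 genes most like NTN4. They were set against the design without the block, which called 0 genes. Of these values 481 kept direction and passed the threshold, and 29 changed direction. A further 1325 entries stayed the same. They hold the values that kept direction and stayed uncalled, and also counts of called genes that remained at 0. A value that lost a call made with the block but kept its direction is among the 1325. That number is therefore no measure of how firm the calls with the block were.

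Direction changed under some alternatives, also for PLXNA1 and PLXNB2 with AMI-5, which were called with the block. In the 9 fits with the block that left out a library these 2 genes kept their direction with AMI-5. PLXNA1 ran from -0.375 to -0.157 there and PLXNB2 from -0.346 to -0.178. With block and GC correction SEMA3A was at -0.0358 with AMI-5 against control and PLXND1 at 0.071 between the compounds. The ranges that follow pool 18 fits without a library, 9 of them with the block. Over the fits without a library, the log2 fold change with AMI-1 ran from -0.264 to 0.0228 for UNC5B, -0.22 to 0.112 for ROBO4, -0.12 to 0.139 for SEMA3A, -0.298 to 0.113 for SEMA3F, -0.389 to 0.152 for PLXNA1 and -0.268 to 0.021 for PLXNA2. With AMI-5 it ran from -0.526 to 0.0121 for PLXNA1 and -0.542 to 0.00309 for PLXNB2. Between the compounds it ran from -0.213 to 0.0168 for UNC5B, -0.0186 to 0.235 for SEMA3A, -0.337 to 0.107 for PLXNA1, -0.163 to 0.019 for PLXNA2 and -0.181 to 0.0834 for PLXND1. With the block, the fits without a library changed direction only for ROBO4, SEMA3A and SEMA3F with AMI-1 and for PLXND1 between the compounds. The cause was not tested. NTN4 and SLIT2 kept their directions with AMI-1 and between the compounds in every fit. With 3 libraries against 3, an exact two-sided permutation test of 1 gene that leaves out the replicate numbers cannot go under 0.1. NTN4 had this value with AMI-1 and between the compounds. SLIT2 had it in all 3 comparisons and ROBO1 with AMI-5, also where these genes were not called.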
